A study of Caenorhabditis elegans with 2 samples.

Results

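The microRNA (miRNA) genes of Caenorhabditis elegans were examined in a chromatin immunoprecipitation sequencing (ChIP-seq) study of DAO-5, a nucleolar protein related to vertebrate Nopp140. All 260 genes that the RefSeq annotation of WBcel235 (ce11) types as miRNA on the nuclear chromosomes were taken, of 46890 nuclear genes. They number 33 on chromosome I, 49 on II, 27 on III, 50 on IV, 28 on V and 73 on X. For each gene the strongest peak within 200 bp was read from 4 deposited peak lists, and no measured value entered the choice of genes.

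The study holds 1 group of 2 biological replicates, whole hermaphrodites of strain OP252 at the L4/young adult stage. OP252 is 1 transgenic line that stably carries DAO-5 with a GFP-FLAG tag at its C terminus, and the precipitation used an antibody against GFP. Both libraries list the same control experiment, and neither an untagged strain nor another condition was analysed here. Whole animals mix all tissues, so a tagged protein bound in more cells and one bound more often per cell cannot be told apart, and the lists hold no cell type marker by which the label could be checked.

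Replicate 1 had 23091 listed peaks, replicate 2 had 21273 and the pooled reads gave 16687. These lists were deposited as input for the irreproducible discovery rate (IDR), a filter on rank agreement between replicates, and therefore include weak regions. The final thresholded list held 549 peaks, 532 of them nuclear. Peak strength is the deposited signal value, whose scale was not given. The median signal was 11.5 in replicate 1, 10.95 in replicate 2, 21.3 in the pooled list and 65.6 in the thresholded list. Signals are therefore read within a list, not between lists.

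miRNAs are short RNAs cut from hairpin transcripts by Drosha in the nucleus and Dicer in the cytoplasm. One arm is loaded into an Argonaute protein and represses messenger RNAs that pair with its seed, the bases 2 to 8 of the mature strand. The first miRNAs described, lin-4 and let-7, time larval development in this worm. Many worm miRNA genes lie in introns of protein-coding genes or in clusters transcribed together, and others have promoters of their own.

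The thresholded list reached 6 of the 260 miRNA genes, or 2.31%, beside 2.21% of all nuclear genes and 0.481% of genome windows of like length. They were mir-53 on chromosome IV, mir-239.2 on X, and mir-229, mir-2214, mir-80 and mir-4936 on III. The gene mir-90 on chromosome III lay just outside the list. Their mature strands are shown because these 7 genes carry the strongest peaks, with the seed in capitals. Where only 1 of the arms has a seed found in other miRNAs annotated on chromosomes II to X, that arm is given. All sequences are from RefSeq (WBcel235), written 5′ to 3′.
mir-4936 (3p arm, chrIII:3249218-3249238, + strand): uGCUUUGUggcuuugcuggua
mir-80 (3p arm, chrIII:8865285-8865307, - strand): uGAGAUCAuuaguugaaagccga
mir-229 (5p arm, chrIII:2172459-2172484, + strand): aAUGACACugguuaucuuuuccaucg
mir-2214 (5p arm, chrIII:7278715-7278735, + strand): aUUCGGUCcggagucaauggg
mir-2214 (3p arm, chrIII:7278754-7278778, + strand): cAUUGACAacaacuugaccggcguu
mir-239.2 (5p arm, chrX:11791363-11791384, - strand): uUUGUACUacacaaaaguacug
mir-53 (5p arm, chrIV:11027653-11027676, - strand): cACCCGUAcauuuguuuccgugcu
mir-90 (3p arm, chrIII:8874001-8874023, - strand): uGAUAUGUuguuugaaugccccu

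The sequences fall into different seed groups. Seeds were counted over annotated mature strands of chromosomes II, III, IV, V and X, without those of I. Each count is therefore a minimum. The mir-80 strand belongs to the bantam-like group, and its seed was found in 6 of the miRNA genes counted. The mir-53 seed was found in 6 genes, the mir-229 seed in 5, the mir-239.2 seed in 3 and the mir-90 seed in 2. The seeds of mir-4936 and of both mir-2214 arms were found in 1 gene each.

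At mir-4936 and mir-2214 the pooled summit, the highest point of the peak, lay inside the annotated hairpin, and at mir-53 it lay 3 bp upstream. These hairpins are shown in full as DNA, with the annotated mature arms in capitals.
mir-4936 (chrIII:3249151-3249260, + strand): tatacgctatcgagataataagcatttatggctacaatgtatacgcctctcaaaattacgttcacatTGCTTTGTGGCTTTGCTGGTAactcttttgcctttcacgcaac
mir-2214 (chrIII:7278715-7278778, + strand): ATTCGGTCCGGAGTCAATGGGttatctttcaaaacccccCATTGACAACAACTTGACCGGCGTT
mir-53 (chrIV:11027593-11027691, - strand): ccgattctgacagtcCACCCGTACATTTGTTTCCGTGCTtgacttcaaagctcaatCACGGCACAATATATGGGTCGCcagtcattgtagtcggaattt

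For the genes whose summit lay outside the hairpin, the 101 bp centred on the pooled summit are shown on the strand of the miRNA gene. Capitals mark matches to the motifs searched (CTCCGCCC, GAGAGA and GTTCGA, on either strand).
mir-80 (chrIII:8865546-8865646, - strand): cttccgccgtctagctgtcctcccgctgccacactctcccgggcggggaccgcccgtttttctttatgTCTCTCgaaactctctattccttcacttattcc
mir-229 (chrIII:2172163-2172263, + strand): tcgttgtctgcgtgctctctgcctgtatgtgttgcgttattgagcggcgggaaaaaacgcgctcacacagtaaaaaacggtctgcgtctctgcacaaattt
mir-90 (chrIII:8874214-8874314, - strand): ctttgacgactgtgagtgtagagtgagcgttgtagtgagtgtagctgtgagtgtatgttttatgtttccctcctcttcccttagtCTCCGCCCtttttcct
mir-239.2 (chrX:11790842-11790942, - strand): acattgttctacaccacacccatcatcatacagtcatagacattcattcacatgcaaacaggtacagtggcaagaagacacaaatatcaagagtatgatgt
mir-53 (chrIV:11027644-11027744, - strand): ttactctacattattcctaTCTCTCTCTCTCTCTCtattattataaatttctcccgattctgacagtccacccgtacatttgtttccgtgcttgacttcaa

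The strongest peak at a miRNA gene was at mir-4936, between genes on chromosome III (chrIII:3249151-3249260, + strand). The pooled summit lay 660 bp from the nearest protein-coding start, that of nduf-9. The pooled signal at mir-4936 was 71.7, beside 45.9 in replicate 1 and 29.1 in replicate 2. It ranked 215 of 16687 pooled peaks, 115 in replicate 1 and 472 in replicate 2. Of the 260 genes, mir-4936 alone lay within 200 bp of one of the 549 strongest peaks of each replicate. The share of 0.385% (exact 95% interval 0.00974 to 2.12) stood beside 1.19% of all nuclear genes and 0.238% of genome windows. The interval included both.

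mir-80, a member of the bantam-like mir-58 family, lies between genes (chrIII:8865270-8865367, − strand). The pooled signal was 63.9, with a summit 229 bp upstream of the hairpin. The replicates differed widely here. Replicate 2 gave 51.5, rank 76, and replicate 1 gave 10.9, rank 13212. The pooled and thresholded entries at mir-80 thus sit beside a replicate 1 peak below that list's median.

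mir-229 lies in an intron of gcn-1, the worm counterpart of the yeast translation regulator GCN1, on the same strand (chrIII:2172452-2172566). Its pooled signal was 62.6, with 43.2 in replicate 1 and 20.6 in replicate 2. The summit lay 239 bp upstream of mir-229 and 20268 bp from the nearest protein-coding start, that of gcn-1. Both replicates listed the region, and it ranked 150 in replicate 1 and 1366 in replicate 2.

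mir-2214 lies in an intron of B0361.11, also on the host strand (chrIII:7278715-7278778). The signal was 62.4 pooled, 35.2 in replicate 1 and 26.3 in replicate 2. It ranked 300 in replicate 1 and 622 in replicate 2, so both replicates placed it among their strong peaks.

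mir-239.2 on X lies between genes (chrX:11791302-11791399, − strand). The pooled signal was 55.9, and the summit lay 410 bp downstream of the hairpin, the largest distance among all member peaks. At this pooled peak the overlapping replicate peaks had signals of 34.4 and 17.2. The strongest replicate 1 peak within 200 bp of the gene itself was another one, at 23.0.

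mir-53 on IV lies between genes (chrIV:11027593-11027691, − strand). Its signal was 52.6 pooled, 24.6 in replicate 1 and 25.4 in replicate 2, and so nearly equal between replicates. It stood close to the threshold, since the weakest thresholded peak had a signal of 51.8.

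Just below the threshold lay mir-90, in an intron of K01F9.2 (chrIII:8873987-8874084, − strand), with a pooled signal of 51.7 and rank 551. Its replicate signals were 32.0 and 26.1, ranks 392 and 628, both ahead of those of mir-53. mir-90 lies 8619 bp from mir-80. The next gene was mir-237 on X at 49.7, also outside the list.

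The other genes among the 15 strongest had pooled signals between 39.9 and 49.5. mir-8186.1 and mir-8186.2 overlap each other on opposite strands at the left end of chromosome II (chrII:18637-18698) and shared 1 peak, with 49.5 pooled, 26.1 in replicate 1 and 22.1 in replicate 2. mir-54, inside F09A5.3 on X, had 44.8 pooled, 19.6 in replicate 1 and 27.7 in replicate 2. mir-4812, in an intron of the lipid kinase gene piki-1, had 44.4 pooled, 24.7 in replicate 1 and 18.8 in replicate 2. The last of these genes, mir-39, mir-40 and mir-41, shared 1 peak with a pooled signal of 39.9.

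**Figure D1:**
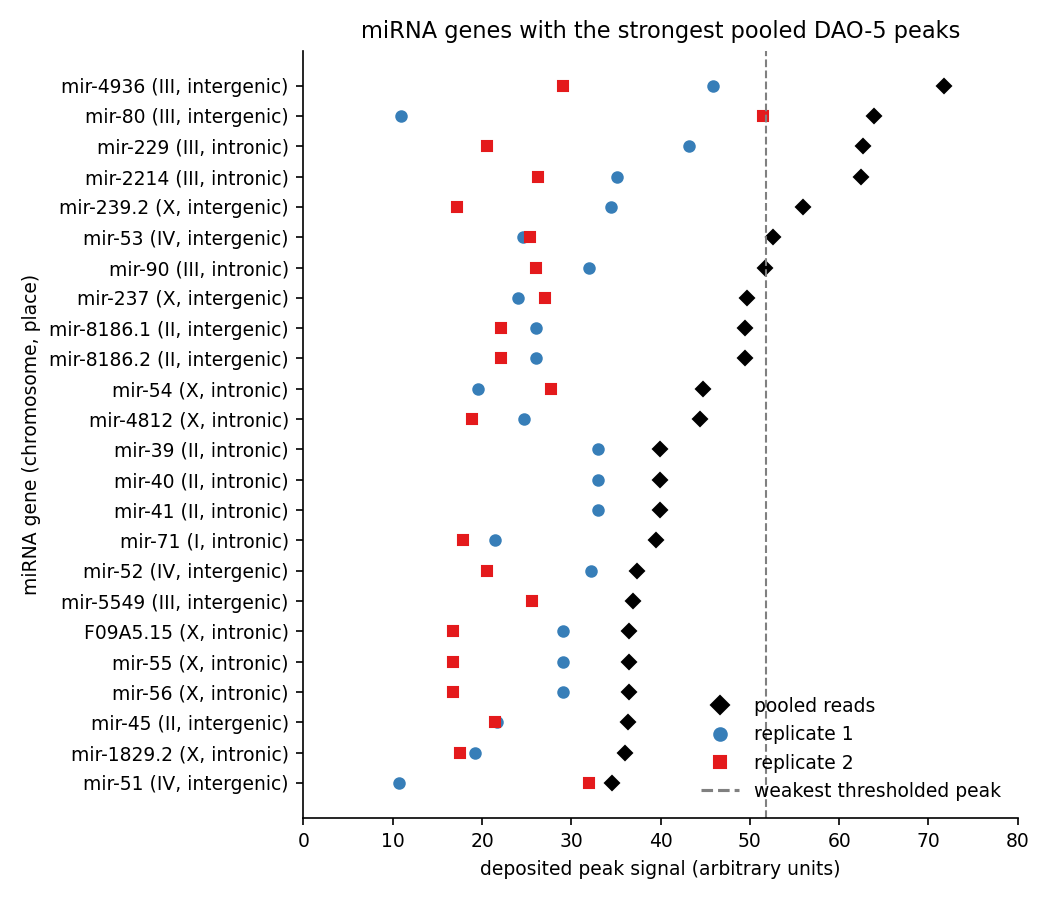
Deposited peak signal (x axis, arbitrary units) at the 24 miRNA genes with the strongest pooled peaks (y axis, with chromosome and place), for the pooled reads and for the replicate peaks that overlap the pooled peak; a missing point means no overlapping peak. mir-4936 leads at 71.7, 6 genes lie right of the weakest thresholded peak (dashed line, 51.8), and the replicates stand far apart at mir-80 and mir-51.

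Across all 260 genes, 6 lay within 200 bp of a thresholded peak (2.31%, exact 95% interval 0.851 to 4.95). The share among all 46890 nuclear genes was 2.21%, with a median gene length of 196 bp against 95.5 bp for miRNA genes. Among 202158 genome windows of 496 bp, which match the miRNA genes' median length with 200 bp on each side, 0.481% met a thresholded peak. The interval for miRNA genes thus lay above the share of genome windows and included that of all genes. The count followed the distance allowed, with 3 genes where the peak had to overlap the gene and 13 within 1000 bp.

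A pooled peak lay within 200 bp of 83 miRNA genes (31.9%, 26.3 to 38.0). This stood beside 27.1% of all nuclear genes and 13.9% of genome windows. Replicate 1 reached 95 genes (36.5%, 30.7 to 42.7), beside 33.5% of all nuclear genes and 19.0% of windows. Replicate 2 reached 91 genes (35%, 29.2 to 41.1), beside 32.4% of all nuclear genes and 17.5% of windows. All 3 intervals lay above the share of windows and included that of all genes. The pooled count was 52 with the summit itself within 200 bp and 128 with any peak within 1000 bp. Neither replicate nor the pooled list had a peak near 135 of the 260 genes. At those genes no peak was listed, which with unknown depth does not show absence of binding.

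Genes of tRNAs and snoRNAs were reached more often. In the thresholded list 33.3% of 612 tRNA genes (29.6 to 37.2) and 18.8% of 346 snoRNA genes (14.8 to 23.3) had a peak, both intervals above that of miRNA genes. Of 129 snRNA genes 7.75% had one (3.78 to 13.8), an interval that overlaps that of miRNA genes. For pooled peaks the shares were 82.7% of tRNA genes (79.4 to 85.6), 53.8% of snoRNA genes (48.3 to 59.1) and 39.5% of snRNA genes (31.0 to 48.5), of which the last interval overlaps that of miRNA genes. Reached less often were piRNA genes, which are 21 bp long and lie in dense clusters. They had a pooled peak at 4.18% (3.87 to 4.51) and a thresholded one at 0.0846%.

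The 83 genes lay at 72 distinct pooled peaks, since 9 peaks were shared by 20 genes. The signals of these 72 peaks ran from 16.4 to 71.7, with a median of 25.03 against 21.3 for all nuclear pooled peaks, and 51 of the 72 were above that median. Only the strongest peak near each gene was kept, whereas the comparison held every nuclear pooled peak, which favours higher values at the genes. Other annotated short RNA genes of the tRNA, snoRNA, snRNA and rRNA types lay within 200 bp of 3 of the 72 peaks. These were the peak at mir-237, near the tRNA genes F22F1.t2 and F22F1.t3, that at mir-1819, near the tRNA genes R11.t3 and R11.t4, and that at mir-77, near the snoRNA gene T21B4.20. None of the 6 thresholded genes had such a neighbour at its peak.

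Of the 72 summits, 9 lay inside a hairpin, 42 upstream and 21 downstream of the hairpin on its own strand. Summits lay as far as 410 bp away, and a hairpin fills only a small part of that span. No count expected from position alone was computed. The median distance was 149 bp, with 27 summits within 100 bp. Where genes shared a peak, these values were taken from the gene at the lower coordinate, not from the nearest. The peak of mir-250 and mir-61, for example, counts as 125 bp upstream of mir-250 though its summit lies inside the mir-61 hairpin. A protein-coding start lay within 1000 bp of 25 of the 72 summits. Among the 260 genes, 81 lie within 1000 bp of such a start.

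**Figure D2:**
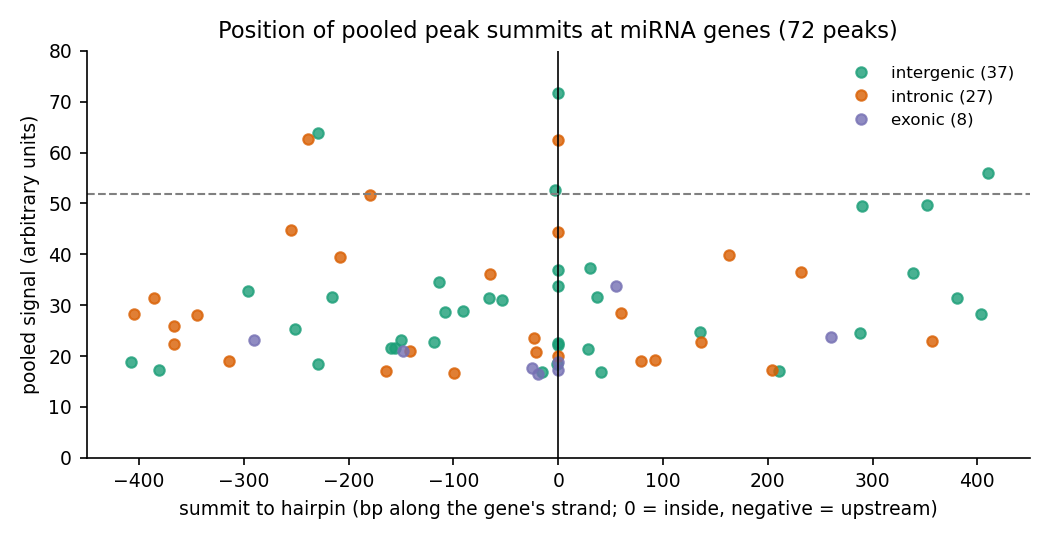
Distance from hairpin to pooled summit along the gene's strand (x axis, bp; 0 is inside the hairpin and negative is upstream) against pooled signal (y axis, arbitrary units) for the 72 distinct pooled peaks, coloured by the place of the miRNA gene. Each shared peak is drawn at its nearest gene, so some positions differ from those counted in the text. Summits lie on both sides, and the peaks above the weakest thresholded peak (dashed line) are found inside, upstream and downstream of the hairpin.

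By place, 93 miRNA genes were intronic, 155 intergenic and 12 overlapped an exon of a protein-coding gene. A pooled peak lay near 33 of the 93 intronic genes (35.5%, 25.8 to 46.1), beside 12.04% of genome windows centred in introns. Of the 155 intergenic genes 42 had one (27.1%, 20.3 to 34.8), beside 11.9% of intergenic windows. The difference of 8.39 percentage points had an interval from -3.97 to 21.0, which includes 0. The same difference was 12.7 points in replicate 1 (-0.226 to 25.5), 16.3 points in replicate 2 (3.46 to 29.0) and 6.67 points for a peak in both (-4.77 to 18.6). Only the replicate 2 interval excluded 0. These intervals treat genes that share a peak as independent. In replicate 2 all 7 genes of the mir-35 cluster, which are intronic, had the same weak strongest peak, with a signal of 8.26. Base composition moved with place, since the median GC content of the gene with 200 bp on each side was 41.4% for intronic and 36.7% for intergenic genes. Its part in the shares was not tested.

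The thresholded list reached 2 intronic and 4 intergenic genes and none of the 12 exonic ones, a count of 0 whose exact interval runs up to 26.5%. The shares of windows in that list were 0.347% in introns, 0.609% between genes and 0.448% in exons. Median pooled signals at reached genes were 28.0 for intronic and 28.5 for intergenic genes, in overlapping ranges of 16.4 to 62.6 and 16.8 to 71.7. Within introns, 22 of 64 genes on the host strand (34.4%, 22.9 to 47.3) and 11 of 29 on the opposite strand (37.9%, 20.7 to 57.7) had a pooled peak. These intervals overlap over most of their range. Among exonic genes 8 of 12 had a pooled peak (66.7%, 34.9 to 90.1), beside 17.2% of windows centred in exons. Their signals ran from 16.4 to 33.7.

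By chromosome, the share with a pooled peak was highest on III, at 16 of 27 genes (59.3%, 38.8 to 77.6) and 14 distinct peaks. Genome windows on III met a pooled peak in 17.1% of cases. The other chromosomes ran from 25% on V (7 of 28, 10.7 to 44.9) to 36.0% on IV (18 of 50, 22.9 to 50.8), and X stood at 26.0% (19 of 73, 16.5 to 37.6). Their windows stood at 11.8% on V, 12.8% on IV, 13.1% on X, 14.9% on II and 15.5% on I. The intervals for I, II, III, IV and X lay above the share of their windows, and that for V included it. For I and II the margins were narrow, with lower bounds of 15.59% and 14.95% against 15.46% and 14.87% of windows. These intervals treat genes that share a peak as independent, and on II the 13 reached genes stood at 10 distinct peaks. The interval for III lay above that for X by a narrow margin (38.8 against 37.6) and overlapped those for I, II, IV and V. The 19 reached genes of X stood at 16 distinct peaks. In the thresholded list III held 4 of the 6 genes (14.8% of 27, 4.19 to 33.7), beside 0.569% of its windows. Chromosomes I, II and V held none, and the chromosome was singled out after its values were seen.

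**Figure D3:**
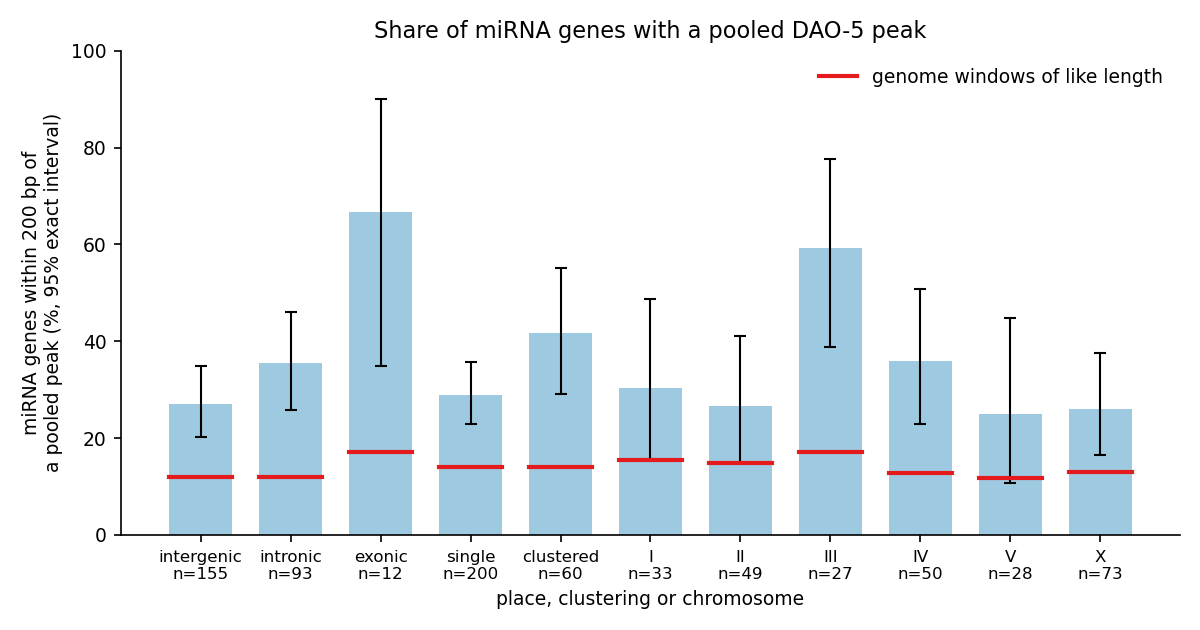
Percentage of miRNA genes with a pooled peak within 200 bp (bars) with exact 95% intervals (error bars), by place, by clustering and by chromosome; red lines give the share of 496 bp genome windows of the same place or chromosome, and of all windows for the single and clustered genes. Chromosome III stands at 59.3%, and the intervals of intergenic and intronic genes overlap.

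Of the 260 genes 60 lie in 21 clusters, taken as genes within 1000 bp of each other, and 200 are single. A pooled peak lay near 25 clustered genes (41.7%, 29.1 to 55.1), at 14 distinct peaks, and near 58 single genes (29.0%, 22.8 to 35.8). The difference was 12.7 points, with an interval of -1.66 to 27.5 that treats neighbours sharing a peak as independent. By cluster, 12 of the 21 had a pooled peak at 1 or more genes. All genes were reached in 7 clusters and some in 5, while 9 had no pooled peak. The latter include both 5-gene clusters of X, which begin with mir-4807 and mir-1018 and had no peak in either replicate list.

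The largest cluster, mir-35 to mir-41, is 797 bp long and lies in an intron of Y62F5A.9 on the opposite strand (chrII:11537608-11538404). Its miRNAs act in the embryo, where the family is essential. The pooled list held 1 peak at its downstream end, within 200 bp of mir-39, mir-40 and mir-41 and not of mir-35 to mir-38. Replicate 1 gave that region a signal of 33.0, rank 365, but replicate 2 listed no peak overlapping it. The replicate 2 peak within 200 bp of these genes was a separate weak one with a signal of 8.26, rank 20651 of 21273. The mir-35 cluster thus had a strong peak in 1 replicate only.

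The mir-229 cluster in gcn-1 (mir-229, mir-64, mir-65 and mir-66) had its signal at the upstream end. mir-64 had a pooled peak of 28.3, which overlaps the mir-229 peak in the list, and mir-65 and mir-66 had none in the lists. On X, the cluster of mir-56, mir-55, F09A5.15 and mir-54 lies inside F09A5.3 (chrX:13144691-13145094). All 4 genes had a pooled peak, mir-54 at 44.8 and the other three at a shared peak of 36.5 on the other side of the cluster. At the shared peak the replicates gave 29.1 and 16.8. Both ends of the cluster thus had a peak in each replicate.

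Of 41 miRNAs in 7 families and 5 single well-studied genes, 3 were reached by a thresholded peak, 21 by a pooled peak, and 21 in both replicate lists. Over all 260 genes the shares were 2.31%, 31.9% and 24.6%. The families were listed from general knowledge with earlier results of these data known, so their counts are given as a description.

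The mir-51 family, needed for embryonic development, was the only listed family with a pooled peak at every gene, 6 of 6. Its mature strands carry the seed on the 5p arm in mir-51, mir-52 and mir-53 and on the 3p arm in mir-54, mir-55 and mir-56.
mir-51 (5p arm, chrIV:11026074-11026096, - strand): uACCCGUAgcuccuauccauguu
mir-52 (5p arm, chrIV:14034024-14034047, + strand): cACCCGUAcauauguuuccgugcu
mir-53 (5p arm, chrIV:11027653-11027676, - strand): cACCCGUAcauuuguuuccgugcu
mir-54 (3p arm, chrX:13145011-13145034, - strand): uACCCGUAaucuucauaauccgag
mir-55 (3p arm, chrX:13144842-13144864, - strand): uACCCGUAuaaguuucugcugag
mir-56 (3p arm, chrX:13144706-13144727, - strand): uACCCGUAauguuuccgcugag
The family's pooled signals ran from 34.6 at mir-51 to 52.6 at mir-53, all above the pooled median of 21.3. The replicates gave 10.7 and 32.0 at mir-51, and 32.2 and 20.6 at mir-52, so that the order of the replicates turned between them. mir-51 and mir-53 lie 1480 bp apart and had separate peaks. Since mir-55 and mir-56 share a peak, the 6 genes stand for 5 peaks.

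In the mir-35 family 3 of 8 genes had a pooled peak and 7 of 8 were near a peak of both replicates, each of them in the cluster described above. The family's shared seed is shown in 4 of its genes, of which mir-35 had no pooled peak.
mir-35 (3p arm, chrII:11537668-11537689, + strand): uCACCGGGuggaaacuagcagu
mir-39 (3p arm, chrII:11538143-11538164, + strand): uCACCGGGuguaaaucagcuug
mir-40 (3p arm, chrII:11538239-11538260, + strand): uCACCGGGuguacaucagcuaa
mir-41 (3p arm, chrII:11538368-11538389, + strand): uCACCGGGugaaaaaucaccua
mir-42, in another cluster with mir-43 and mir-44, had a replicate 1 peak of 12.04 and no other. Genes of identical seed therefore stood with and without a pooled peak.

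The let-7 and lin-4 families hold the timing miRNAs, shown here with their seeds.
let-7 (5p arm, chrX:14744234-14744255, - strand): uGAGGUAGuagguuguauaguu
mir-48 (5p arm, chrV:14364472-14364494, - strand): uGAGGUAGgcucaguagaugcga
lin-4 (5p arm, chrII:5902269-5902289, + strand): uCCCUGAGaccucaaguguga
mir-237 (5p arm, chrX:8154099-8154121, + strand): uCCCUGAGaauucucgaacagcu
let-7 had a pooled peak of 23.1 with its summit 290 bp upstream of the hairpin. The replicate signals near it were 15.5 and 14.2. The annotated let-7 gene spans 1732 bp, far more than its 99 bp hairpin, and the replicate 1 value came from a peak that did not overlap the pooled one. mir-48 had 25.3 pooled, 13.3 in replicate 1 and 12.4 in replicate 2. The other five let-7 relatives had no pooled peak, and only mir-794 had a replicate peak, at 9.70 in replicate 2. lin-4 had a replicate 1 peak of 13.8 and none in replicate 2 or the pooled list. Its relative mir-237 had 49.7 pooled and 27.1 in replicate 2. No replicate 1 peak lay within 200 bp of mir-237, though one with a signal of 24.0 overlapped the pooled peak, which lies next to the tRNA genes named above.

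In the mir-58 family, often the most abundant miRNA family in worms, mir-80 had 63.9 and mir-58.1 had 25.9 in the pooled list. The seed of mir-58.1 differs from that of mir-80 in its last base. Outside the listed family, mir-58.2, Y73B6A.17 and mir-2209.1 carry the mir-80 seed. Of these, mir-2209.1 had 24.7 pooled, and mir-58.2 and Y73B6A.17 had no peak in any list. mir-81 had no peak in any list, and mir-82 had 12.8 in replicate 1 alone. In the mir-2 family, mir-2 had 31.4 and mir-250 had 33.9 pooled, mir-43 had only a replicate 1 peak and mir-797 had none. mir-63, the X-linked member of the mir-229 seed group, had none. Of the single genes, mir-71, which promotes long life, had 39.5 pooled with 21.4 and 17.9 in the replicates. mir-34, a stress-response miRNA, had 31.6 pooled with 11.0 and 20.1. The neuronal mir-124 had 19.0 pooled with 10.2 and 8.15. The muscle miRNA mir-1 and lsy-6, which sets left-right asymmetry of taste neurons, had no peak in any list.

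**Figure D4:**
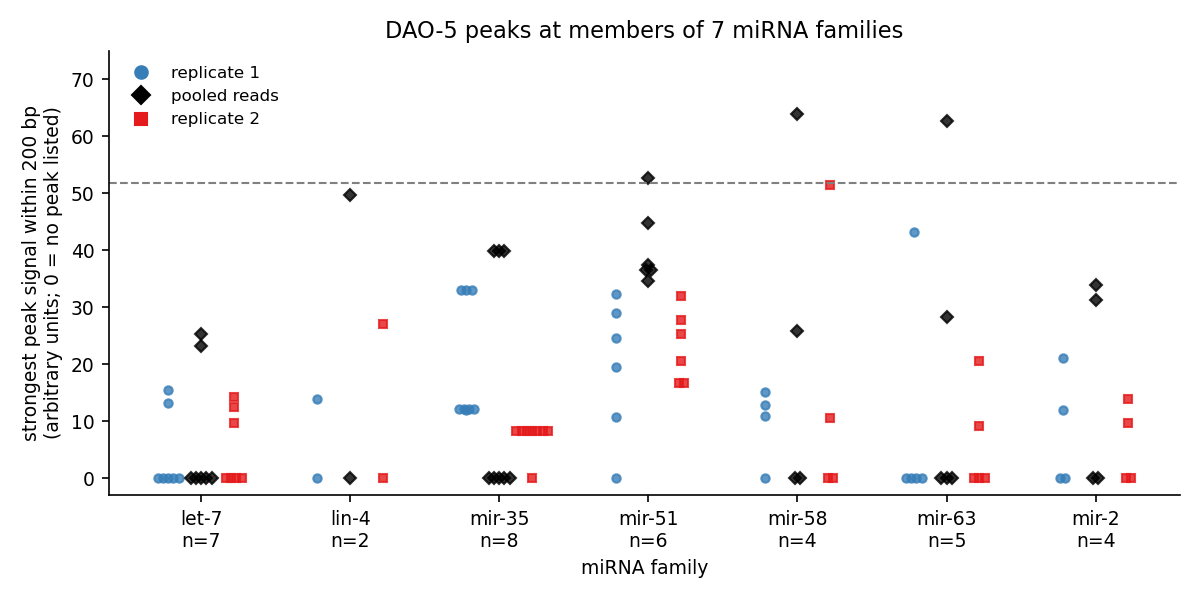
Strongest peak signal within 200 bp (y axis, arbitrary units; 0 marks no listed peak) for each gene of 7 miRNA families (x axis), by replicate and for the pooled reads, with the weakest thresholded peak as a dashed line. All 6 mir-51 family genes have a pooled peak, while the let-7, mir-35, mir-58, mir-63 and mir-2 families hold genes with and without one.

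Agreement between replicates was partial. Both lists held a peak near 64 genes (24.6%, 19.5 to 30.3), beside 21.6% of all nuclear genes and 7.50% of genome windows. The interval included the share of all genes and lay above that of windows. A further 58 genes were near a peak of 1 replicate only. Of the 83 genes with a pooled peak 58 were near peaks of both replicates, 12 of replicate 1 alone, 10 of replicate 2 alone and 3 (mir-50, mir-79 and mir-1821, named after their values were seen) of neither. At the level of the 72 distinct pooled peaks, 52 were overlapped by a peak of both replicates (72.2%), 13 by replicate 1 alone, 6 by replicate 2 alone and 1 by neither. Among all nuclear pooled peaks 53.0% were overlapped by both.

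The signal values of each replicate come from its strongest peak within 200 bp of the gene. At 50 of the 64 genes these replicate peaks overlapped each other, and at 14 they were separate peaks. Across the 64 genes Spearman's rho of the 2 replicate signals was 0.239, and across their 55 distinct peak pairs it was 0.319. Across the 50 genes with overlapping replicate peaks it was 0.445. These are descriptions across genes of 1 pair of libraries that share a control. Among the 58 genes with a peak in all 3 lists, the median gap between the rank percentiles in the 2 replicates was 30.5 points. Over the 45 of them whose replicate peaks overlapped, the median gap was 17.5 points. The gap was within 10 points for 21 genes and over 50 points for 14, of which 7 had overlapping replicate peaks. Replicate 1 ranked the gene higher in 36 cases and replicate 2 in 22.

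The widest gap was 95.5 points, at mir-39, mir-40 and mir-41 (33.0 against 8.26), where the replicate peaks were separate ones. The next was 92.7 points at mir-1819 (8.50 against 21.9), where they overlapped. The genes near the 549 strongest peaks of each replicate were mostly not the same. In replicate 1 they numbered 10, or 3.85% (1.86 to 6.96; windows 0.482%): mir-4936, mir-229, mir-2214, mir-39, mir-40, mir-41, mir-52, mir-90, mir-56 and mir-77. In replicate 2 they numbered 4, or 1.54% (0.421 to 3.89; windows 0.475%): mir-80, mir-51, mir-4936 and mir-54.

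**Figure D5:**
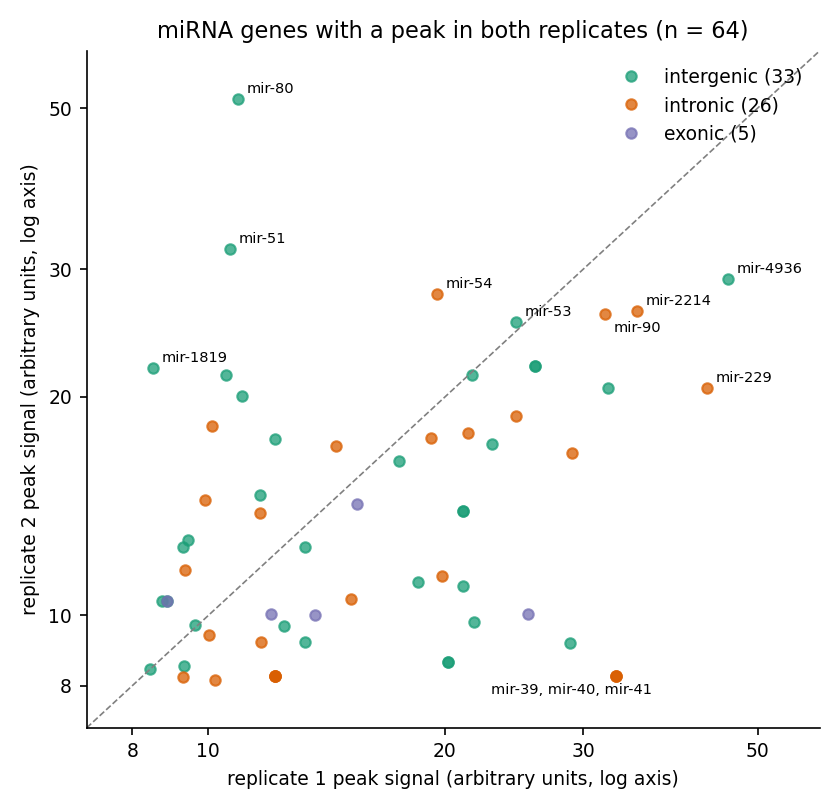
Strongest replicate 1 peak signal (x axis) against strongest replicate 2 peak signal (y axis), both in arbitrary units on log axes, for the 64 miRNA genes near a peak of both replicates, coloured by place, with the line of equality dashed; at 14 genes the replicate peaks are separate ones. Spearman's rho is 0.239 over all points and 0.445 over the 50 with overlapping peaks: mir-80 and mir-51 stand high in replicate 2 only, mir-39, mir-40 and mir-41 in replicate 1 only, and mir-4936 is high in both.

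Sequence around the genes was described next. The GC content of gene plus 200 bp on each side had a median of 40.8% for the 83 genes with a pooled peak and 37.1% for the 177 without. Genome windows had 35.1%, and those with a pooled peak 37.7%. Among the 83 genes Spearman's rho of GC content and pooled signal was -0.0771, given as a description across genes. A stretch of 30 bases found elsewhere in the genome occurred in 28 of the 260 genes but in none of the 6 thresholded ones.

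The motif CTCCGCCC, described upstream of worm miRNA genes, was searched on both strands in the 1000 bp upstream of each hairpin. It was found at 34 of 260 genes (13.1%) and in 3.25% of genome windows of that length. Genes with a pooled peak held it in 19 of 83 cases (22.9%) and genes without in 15 of 177 (8.47%). By place, the motif lay upstream of 20.4% of intronic and 9.68% of intergenic genes. How far place or GC content goes with the difference by peak was not tested. Neighbours in a cluster share upstream sequence, so the genes are not independent. In mir-80 it lay 158 bp and in mir-90 137 bp upstream of the hairpin, and in mir-90 it falls inside the summit window shown above. The other five thresholded genes had no match. Within 50 bp of the summit it was rare, in 2 of 72 member peaks (2.78%) and 0.834% of all nuclear pooled peaks.

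GAGAGA was found upstream of 54.6% of the genes and in 39.6% of windows, and at 16.7% of member summits against 10.3% of all pooled summits. GTTCGA, which lies within the internal promoter of tRNA genes, was found upstream of 28.5% of the genes and in 31.2% of windows. It occurred at 8.33% of member summits, the window of mir-4936 among them, against 5.14% of all pooled summits. A match describes letters only and is not a bound site.

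The genes that make and use miRNAs were read from 1000 bp before to 200 bp after their starts. Of 15 processing and effector genes 3 had a thresholded peak, beside 1.42% of 19971 protein-coding genes. These were ain-1, a GW182-type partner of Argonaute, with a signal of 80.8, xrn-2, an exonuclease that degrades miRNAs, with 55.1, and vig-1, a component of the silencing complex, with 53.7. The replicates gave 30.4 and 52.7 at ain-1, 15.7 and 38.6 at xrn-2, and 29.0 and 23.3 at vig-1. In all, 10 of the 15 had a pooled peak, beside 28.5% of protein-coding genes. They include drsh-1, which encodes Drosha, at 29.4 and alg-2, an Argonaute gene, at 24.3. The other Argonaute gene alg-1 and pash-1, the partner of Drosha, had no peak in any list, and dcr-1, which encodes Dicer, had only a replicate 2 peak of 9.21.

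Of 8 classic targets 1 had a thresholded peak and 3 a pooled one, beside 1.42% and 28.5% of protein-coding genes. lin-14, the target of lin-4, had 67.8 pooled, 35.2 in replicate 1 and 28.0 in replicate 2. lin-28 had 22.8 and the cell-death gene egl-1 had 25.9 pooled. lin-41 and cog-1, targets of let-7 and lsy-6, had no peak in any list. The list was drawn up with earlier results known and is described only.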

How the data were processed

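Peak lists of 1 group of 2 biological replicates were used. The authors deposited for each peak a signal value in a list per replicate, a list from pooled reads and an IDR-thresholded list, per the file names and labels. The aligner, peak caller, versions, IDR threshold and scaling of the signal are not given in the sources used here. Depth is unknown, and intervals cover counting error only.

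The ce11 lists were joined to the RefSeq annotation of the same build, with coordinates counted from 1. A gene was reached where a peak lay within 200 bp, and the strongest peak was kept. Shares have exact (Clopper-Pearson) 95% intervals, and intervals of differences combine them by the square-and-add method. No p-value was computed, since there is no contrast. Background came from all nuclear genes and from 496 bp windows placed by their central 96 bp. Exonic genes overlap a protein-coding exon, and intronic ones lie inside such a gene without doing so. The counting was tested on simulated lists. Python 3.11.15, numpy 2.4.6, scipy 1.17.1 and pandas 2.3.3 were used.

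Named genes are those in the thresholded list, the 15 with the strongest pooled peak, those among the 549 strongest peaks in each replicate, the widest replicate gaps and the families. Genes, families, motifs and the pathway list were chosen with earlier results of these data known. The ce10 lists were not used.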

Additional observations from a re-analysis of the deposited data

How the results depend on the processing

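Counts of reached genes followed the distance allowed. With overlap of the gene itself, 3 genes met a thresholded peak and 30 met both replicate lists, and the pooled shares were 21.5% of intronic, 18.7% of intergenic and 20% of clustered genes. With 1000 bp these values were 13, 112, 55.9%, 43.2% and 71.7%, 128 genes had a pooled peak and 6 lay near the strongest peaks of both replicates. With the summit within 200 bp they were 3, 29, 19.4%, 16.8% and 18.3%, and 52 genes had a pooled peak. The stronger 50% of each list gave 1 gene for the thresholded list, 27 for both replicates and 23.7% of intronic genes. With 2 times as many strongest peaks 6 genes lay near them in both replicates. With 1 replicate alone, the 549 strongest peaks reached 4 to 10 genes, in place of the 6 of the thresholded list. The hairpin span in place of the gene, leaving out genes at other short RNA genes, and asking that the replicate peaks overlap each other, were added after the data were seen. The first and second gave 6 thresholded genes each, and 83 and 80 pooled ones, and the last gave 50 genes in both replicate lists. The intronic minus intergenic difference kept its sign, from 1.72 points with the stronger 50% of the pooled list to 16.3 points with replicate 2 alone. No paired analysis was possible because there is 1 group. Unknown depth limits every statement on a gene with no listed peak.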
